A study of Mus musculus with 8 samples.

Results

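The endothelial junction and barrier genes described here were Cldn5, Ocln, Jam2, F11r, Esam, Tjp1, Cdh5, Pecam1 and Plvap. They were chosen by name, and all 9 were found in each of 8 expression matrices that together held 20408 genes. The matrices held single-cell transcriptomes of FACS-sorted CD31+ tumour endothelial cells (ECs) from adult female mice, and the methods define live ECs in sorts as CD45- and CD31+. The 8 libraries formed 4 groups by model and injection, with 2 libraries, from 2 mice per the methods, for each combination of spontaneous or implanted tumours with PBS or cGAMP. Spontaneous tumours arose in MMTV-PyMT mice, in which a mammary tumour virus promoter drives the polyoma middle T oncoprotein in mammary epithelium, so the transgene is aimed at the tumour cells and not at the vessels. Implanted tumours grew from PyMT tumour cells that were cultured and then injected in Matrigel into the mammary fat pad of mice without a stated transgene. According to the methods the mice of either model were FVB, but the label of each library reads C57BL/6, so the strain is not settled. Tumours of all groups were taken 3 h after an intratumoural injection of either PBS or cGAMP, a cyclic dinucleotide that activates STING.

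Endothelial cells are held together by tight junctions and adherens junctions that share 1 narrow cleft. Claudins and occludin cross the membrane at the tight junction, and the scaffold ZO-1 ties them to actin, while VE-cadherin carries the adherens junction. Immunoglobulin-like adhesion proteins (JAM-A, JAM-B, ESAM and PECAM-1) sit in the same cleft and are also used by leukocytes that cross it. PLVAP belongs to a different route: it forms the diaphragms of fenestrae, caveolae and transendothelial channels, and it is scarce in vessels with a tight barrier such as those of the brain.

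A cell was kept as an EC when at least 2 of Pecam1, Cdh5 and Esam had a UMI (unique molecular identifier, 1 per captured transcript). Of 8204 deposited cells, 7087 passed, 603 to 1473 per library. Since 3 members set this gate, their group and vessel-type values come from a second gate, at least 2 of Egfl7, Tie1 and Ramp2, which 6845 cells passed and 6427 cells shared with the first. Levels are given as mean CPM (UMIs of a gene relative to all UMIs of the cell, scaled to the same total in every cell) over the ECs of a library. They come from 3′ tags, 1 per molecule, that were not divided by transcript length, so levels are compared between cells for a gene and not between genes. Replicate 1 of implanted cGAMP stood apart: 72.7% of its cells passed the first gate against 87.7 to 92.4% in the other libraries, and its ECs had a median of 3308 UMIs against 9677 to 14728. Markers of another cell type (at least 2 of a list) were found in 8.01 to 17.9% of ECs after PBS and in 24.5 to 36.6% after cGAMP, mural markers in 2.002 to 5.79% and 9.45 to 20.5%. No library pair shared more than 3 cell barcodes.

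All 9 members are protein-coding genes in the GENCODE annotation of GRCm38. The tight junction genes lie at chr16:18776847-18778262 on the plus strand (Cldn5), chr13:100496507-100552718 on the minus strand (Ocln) and chr7:65296165-65527781 on the minus strand (Tjp1). The JAM family genes lie at chr16:84774123-84825928 (Jam2), chr1:171437535-171464603 (F11r) and chr9:37528078-37538319 (Esam), all on the plus strand. Cdh5 lies at chr8:104101625-104144511 on the plus strand, and Pecam1 at chr11:106654217-106750628 and Plvap at chr8:71497765-71511752 on the minus strand. Gene models on the same strand overlap Jam2 (Gm25908) and Tjp1 (Gm44794 and Gm44792), so how reads were divided between these is uncertain.

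RefSeq promoter sequences of GRCm38.p6, 250 bases before to 50 bases after a start, were found for 4 members. The window of Tjp1 lies inside the GENCODE gene, which has 6 annotated starts, and does not cover the outermost one. Motifs found or missing there do not describe the other starts of Tjp1. The promoters of F11r and Tjp1 are shown because these transcripts moved in opposite directions after cGAMP, and that of Cldn5 because it was low in venous-marker and high in lymphatic-marker cells. Capitals mark matches of the GC box GGGCGG, which reads CCGCCC where it lies on the opposite strand. 
F11r promoter, chr1:171437311-171437610, plus strand: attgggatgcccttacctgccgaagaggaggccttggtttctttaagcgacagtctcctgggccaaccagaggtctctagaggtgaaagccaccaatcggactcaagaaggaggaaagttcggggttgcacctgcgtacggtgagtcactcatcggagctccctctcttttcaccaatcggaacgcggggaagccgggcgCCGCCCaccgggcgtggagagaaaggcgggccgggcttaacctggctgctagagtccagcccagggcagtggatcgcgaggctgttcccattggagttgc
Tjp1 promoter, chr7:65371195-65371494, minus strand: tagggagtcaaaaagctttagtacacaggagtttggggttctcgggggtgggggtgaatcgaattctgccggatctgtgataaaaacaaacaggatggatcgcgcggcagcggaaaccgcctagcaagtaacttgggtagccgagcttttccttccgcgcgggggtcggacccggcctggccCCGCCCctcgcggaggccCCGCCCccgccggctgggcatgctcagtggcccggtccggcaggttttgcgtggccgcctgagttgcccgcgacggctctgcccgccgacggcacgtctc
Cldn5 promoter, chr16:18776597-18776896, plus strand: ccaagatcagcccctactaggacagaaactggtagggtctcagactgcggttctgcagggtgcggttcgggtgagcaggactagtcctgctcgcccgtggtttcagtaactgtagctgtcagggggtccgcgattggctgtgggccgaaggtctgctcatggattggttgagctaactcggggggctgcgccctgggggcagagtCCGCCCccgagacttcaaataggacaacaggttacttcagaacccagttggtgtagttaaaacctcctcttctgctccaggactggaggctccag
The GC box was found once in the F11r window, 50 bases before the start, 2 times in the Tjp1 window, 68 and 50 bases before it, and once in the Cldn5 window, 45 bases before it. GC boxes were found in 35.7% of all 32851 promoters of this length. The other 6 motifs were searched on both strands and matched none of these 3 windows: the interferon-stimulated response element core GAAANNGAA, held by 8.56% of all promoters, the NF-kB type GGAANTTCC (0.928%), the ETS types AGGAAG (35.4%) and CCGGAA (14.9%), the SOX type AACAAT (10.7%) and TATAAA (13.6%). The windows were rich in G and C, at 60.3% for F11r, 65.3% for Tjp1 and 58.3% for Cldn5 against a median of 52.7% over all promoters. These matches describe letters only.

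Of the 9 members 8 were at levels that allowed a test in every comparison, and Ocln was near the limit of detection. Ocln gave 9 and 6 UMIs in spontaneous PBS, 7 and 5 in spontaneous cGAMP, 10 and 9 in implanted PBS, and 13 and 1 in implanted cGAMP. Its mean was 0.0982 to 1.04 CPM, below the minimum of 5 CPM in 2 libraries that was required for a test of the groups. Whether occludin transcripts differed between groups was not detectable at this depth.

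Claudin-5 transcripts were at 827 and 711 CPM in spontaneous PBS, 777 and 687 in spontaneous cGAMP, 810 and 730 in implanted PBS, and 699 and 967 in implanted cGAMP. All 4 groups overlapped. Plvap gave 1421 and 1578 CPM in spontaneous PBS, 1549 and 1649 in spontaneous cGAMP, 1752 and 1645 in implanted PBS, and 1350 and 1625 in implanted cGAMP. Both implanted cGAMP libraries lay below both implanted PBS libraries, and the spontaneous groups overlapped. This fall of Plvap did not pass the test (adjusted p = 0.164, limma). The share of all genes whose libraries separate between groups is not given here. Separation of libraries, here and below, is therefore a description and not a test.

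F11r, which encodes JAM-A, was at 262 and 259 CPM in spontaneous PBS, 307 and 315 in spontaneous cGAMP, 261 and 250 in implanted PBS, and 346 and 398 in implanted cGAMP. Every cGAMP library lay above every PBS library. Tjp1, which encodes ZO-1, was at 218 and 216 CPM in spontaneous PBS, 180 and 186 in spontaneous cGAMP, 201 and 208 in implanted PBS, and 151 and 168 in implanted cGAMP. Here every cGAMP library lay below every PBS library. Jam2 (JAM-B) gave 220 and 213 CPM in spontaneous PBS, 232 and 200 in spontaneous cGAMP, 152 and 175 in implanted PBS, and 164 and 201 in implanted cGAMP.

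The 3 genes of the first gate were read from the second one. Cdh5 ranged from 1023 to 1261 CPM and Pecam1 from 905 to 1186 CPM, a narrow range for the cells of a CD31 sort, which selects on the protein that Pecam1 encodes. Pecam1 was at 1147 and 1128 CPM in spontaneous PBS, 1008 and 1065 in spontaneous cGAMP, 1186 and 1093 in implanted PBS, and 905 and 979 in implanted cGAMP. Esam gave 812 and 856 CPM in spontaneous PBS, 777 and 821 in spontaneous cGAMP, 737 and 749 in implanted PBS, and 573 and 719 in implanted cGAMP.

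**Figure D1:**
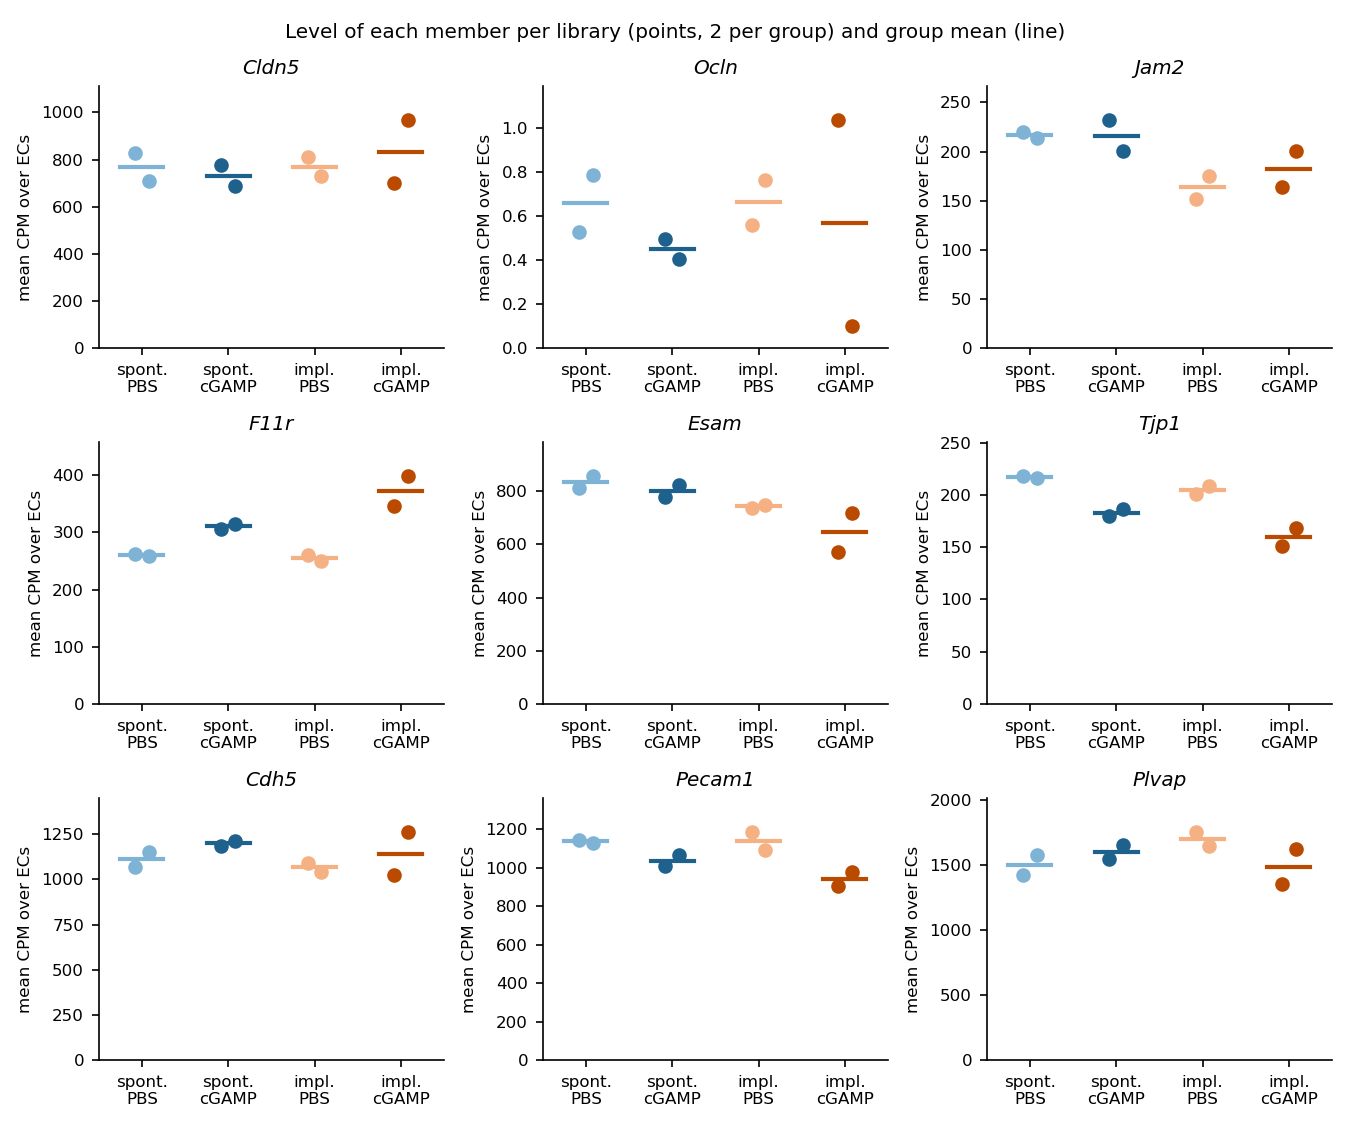
Mean level in CPM of each of the 9 junction genes in each library (points), by group, with the mean of the 2 libraries of a group (line). F11r lay above its PBS libraries after cGAMP in both models and Tjp1 below, whereas Ocln stayed at or below 1.04 CPM.

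In implanted tumours cGAMP was followed by a rise of F11r and a fall of Tjp1 and Pecam1. F11r was 1.45-fold its PBS level (log2 fold change 0.54 ± 0.08 (SE), adjusted p = 0.00122 in limma, n = 2 against 2). Tjp1 fell by 0.36 ± 0.08 on the log2 scale (adjusted p = 0.00746, limma) and Pecam1 by 0.27 ± 0.07 (adjusted p = 0.0211, limma). These were 3 of 8 members tested, against a background of 26.3% of all 10415 genes called in this comparison, or 26.6% of 10378 genes for the second gate. The median change over the tested members was −0.05 against −0.10 over all genes. Esam (−0.21 ± 0.10), Plvap (−0.20 ± 0.10), Jam2 (0.15 ± 0.11), Cldn5 (0.10 ± 0.14) and Cdh5 (0.09 ± 0.10) did not pass the test.

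These calls differed in how far they rested on a library. Without the shallow replicate 1 of implanted cGAMP, F11r stayed called at 0.64 (adjusted p = 0.000652, limma) and Tjp1 at −0.28 (adjusted p = 0.0352), while Pecam1 was at −0.22 and lost its call (adjusted p = 0.0924). Pecam1 was also lost without replicate 1 of implanted PBS (−0.22, adjusted p = 0.144) and with median-of-ratios scaling (−0.17, adjusted p = 0.134), and Tjp1 without replicate 2 of implanted PBS (−0.34, adjusted p = 0.0586). Without replicate 2 of implanted cGAMP, Esam (−0.37, adjusted p = 0.00890) and Plvap (−0.33, adjusted p = 0.0302) became called. With the ECs that carried markers of other cell types left out, F11r was at 0.58 (adjusted p = 0.000574), Tjp1 at −0.31 (adjusted p = 0.0191) and Pecam1 at −0.25 (adjusted p = 0.0232).

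In spontaneous tumours no member passed the test, against 13.2% of all genes at the first gate and 14.1% at the second. At an unadjusted p under 0.05 there were 2, F11r (0.25 ± 0.08, adjusted p = 0.0670, limma) and Tjp1 (−0.24 ± 0.08, adjusted p = 0.0644). Both pointed the same way as in implanted tumours, and both values lay close to the threshold. With UMIs summed per library, F11r was at 0.29 (adjusted p = 0.0195) and Tjp1 at −0.36 (adjusted p = 0.00440). Pecam1 (−0.13 ± 0.07), Cdh5 (0.11 ± 0.10), Plvap (0.09 ± 0.10), Cldn5 (−0.07 ± 0.14), Esam (−0.06 ± 0.10) and Jam2 (−0.01 ± 0.11) gave smaller values.

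The difference between both responses was tested in the same fit, and no member passed, as against 0.922% of all genes (0.790% at the second gate). F11r was the 1 member at an unadjusted p under 0.05, with a response larger by 0.29 ± 0.11 in implanted tumours (adjusted p = 0.321, limma). Plvap moved the other way, by −0.29 ± 0.14 (adjusted p = 0.393). A call in implanted tumours alone was therefore not shown to differ from spontaneous tumours for F11r, Tjp1 or Pecam1.

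Between the models, again no member passed the test. After PBS, 8.41% of all genes were called (8.56% at the second gate), and Jam2 was the 1 member with an unadjusted p under 0.05, lower in implanted tumours by −0.41 ± 0.11 (adjusted p = 0.0586, limma). Both implanted PBS libraries lay below both spontaneous ones for Jam2, and both lay above them for Plvap (0.18 ± 0.10, adjusted p = 0.281). After cGAMP, 15.2% of all genes were called (15.4% at the second gate), and 3 members had an unadjusted p under 0.05. They were F11r, higher in implanted tumours by 0.26 ± 0.08 (adjusted p = 0.0606), Esam, lower by −0.32 ± 0.10 (adjusted p = 0.0591), and Tjp1, lower by −0.20 ± 0.08 (adjusted p = 0.112). With UMIs summed per library, Jam2 was called after PBS (−0.41, adjusted p = 0.0103), and F11r (0.38, adjusted p = 0.00971), Esam (−0.21, adjusted p = 0.0432) and Jam2 (−0.26, adjusted p = 0.0352) after cGAMP. The comparisons of models and of treatments share libraries.

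**Figure D2:**
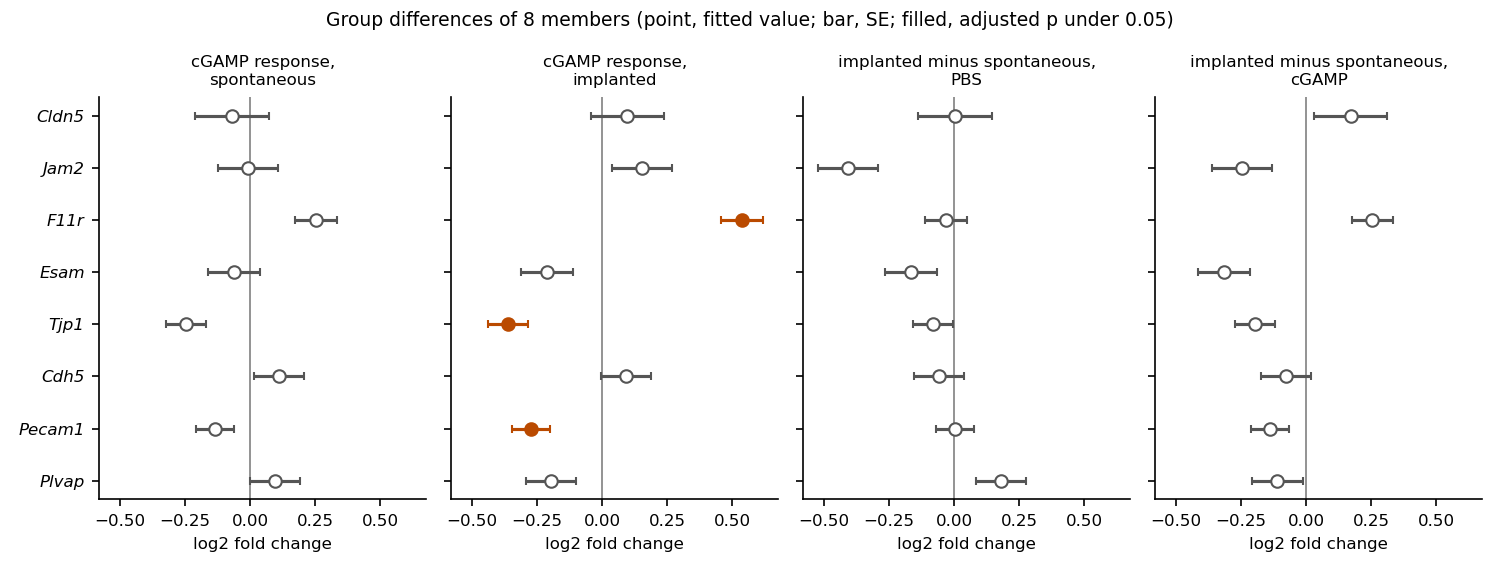
Log2 fold change with its SE for the 8 tested junction genes in the cGAMP response of each model and between the models after each treatment. Filled points mark adjusted p under 0.05, which were F11r, Tjp1 and Pecam1 in the implanted cGAMP response.

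For every member tested between groups except F11r, the largest vessel-type difference exceeded the largest group difference over all ECs. The 2 were close for Tjp1 (−0.49 in lymphatic-marker cells and −0.36 in the implanted cGAMP response). For F11r the implanted cGAMP response (0.54) was larger than any vessel-type difference, of which the largest was 0.38 in tip-like-marker cells. Tumour vessels hold arterial, capillary and venous ECs, tip-like cells that lead new sprouts, proliferating cells and lymphatic ECs. A cell was counted in a class when at least 4 markers of the class, none of them 1 of the 9 members, had a UMI. AQP7+ capillary cells also needed a UMI of Aqp7. There were 1724 arterial-marker, 1681 venous-marker, 312 AQP7+ capillary-marker, 1303 tip-like-marker, 299 proliferative-marker and 340 lymphatic-marker cells among ECs of the first gate, of which 831 cells carried more than 1 class, and 2336 cells had none. A class is a range of marker counts, since 6.73% (AQP7+ capillary) to 43.6% (tip-like) of its cells lay exactly at the limit. Each class was compared with all other ECs of the same library over libraries with at least 15 cells of it, which were all 8 except for proliferative-marker cells, found in this number in the 4 PBS libraries.

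Claudin-5 and Plvap moved in opposite directions in venous-marker, arterial-marker and AQP7+ capillary-marker cells. In venous-marker cells Cldn5 was at 139 CPM at the lowest, 230 at the median and 340 at the highest library, against 824, 937 and 1081 CPM in the other ECs. Venous-marker cells were the lower ones in all 8 libraries and the ranges did not overlap. The difference was −2.08 ± 0.12 (log2, adjusted p = 1.67e-08, limma). In the same cells Plvap was at 1846, 2194 and 2721 CPM against 1130, 1378 and 1534 in the other ECs, higher by 0.73 ± 0.06 in 8 of 8 libraries (adjusted p = 6.45e-07, limma).

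The arterial pattern was the opposite, against other ECs that included the venous-marker cells. The part of the venous-marker cells in this difference was not tested. Cldn5 was at 861, 1174 and 1554 CPM (lowest, median and highest library) in arterial-marker cells and 510, 636 and 861 in other ECs, a difference of 0.80 ± 0.10 (adjusted p = 1.998e-05, limma, higher in 8 of 8 libraries). Plvap was lower there by −0.59 ± 0.09 (adjusted p = 6.17e-05, lower in 8 of 8). AQP7+ capillary-marker cells, which carry genes of fatty acid uptake, likewise had more Cldn5 (0.996 ± 0.076, adjusted p = 6.78e-09, 8 of 8) and less Plvap (−0.45 ± 0.11, adjusted p = 0.00764, lower in 7 of 8). That Plvap value lost its call when cells of more than 1 class were left out (−0.40, adjusted p = 0.208). Tip-like-marker cells had the Cldn5 level of other ECs within error (−0.01 ± 0.08, adjusted p = 0.944) and slightly less Plvap (−0.26 ± 0.05, adjusted p = 0.000566, lower in 8 of 8).

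The log2 difference of Plvap and Cldn5 within a class gives this order as a description, on a scale of CPM levels that were not divided by length. Its median over libraries was 3.29 in venous-marker cells (2.73 to 4.18), 1.4996 in proliferative-marker, 0.78 in tip-like-marker, 0.00 in arterial-marker, −0.21 in AQP7+ capillary-marker and −1.64 in lymphatic-marker cells, against 1.05 (0.75 to 1.26) in all ECs. The ranges of arterial-marker (−0.86 to 0.79) and AQP7+ capillary-marker cells (−1.15 to 0.14) overlapped widely. Venous-marker cells overlapped with no other class.

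**Figure D3:**
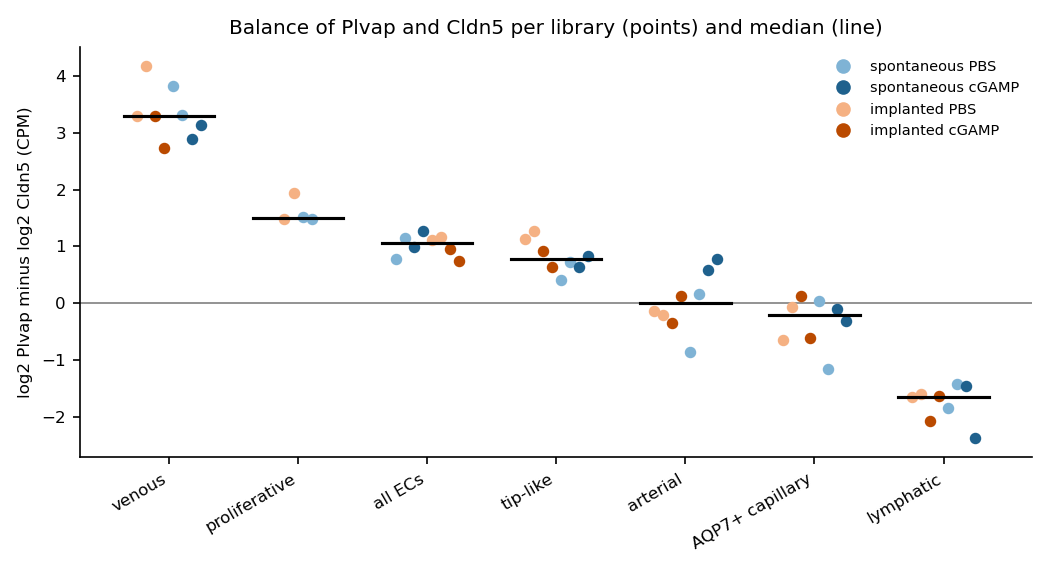
Plvap minus Cldn5, as log2 of mean CPM + 1, in each library (points) for each class of marker cells and for all ECs, with the median over libraries (line). Venous-marker cells lay at 2.73 to 4.18 and lymphatic-marker cells at −2.37 to −1.41.

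The immunoglobulin-like adhesion genes each followed a pattern of their own. Jam2 was higher in venous-marker cells (231, 265 and 333 CPM against 106, 178 and 224; 0.74 ± 0.11, adjusted p = 8.95e-05, limma, 8 of 8) and in AQP7+ capillary-marker cells (0.97 ± 0.11, adjusted p = 1.26e-06, 8 of 8). In tip-like-marker cells it was at 57.4, 73.6 and 127 CPM against 177, 227 and 264 in other ECs. All 8 libraries had less Jam2 there, with no overlap (−1.44 ± 0.11, adjusted p = 4.79e-07). F11r went the other way, higher in tip-like-marker cells by 0.38 ± 0.06 (adjusted p = 0.000354, 8 of 8) and lower in venous-marker cells by −0.34 ± 0.05 (adjusted p = 4.80e-05, lower in 8 of 8). Esam, an adhesion protein of endothelium and platelets, was highest against other ECs in arterial-marker cells (862, 930 and 1126 CPM against 520, 700 and 773; 0.50 ± 0.05, adjusted p = 1.43e-06, 8 of 8) and lower in venous-marker cells (−0.31 ± 0.06, adjusted p = 0.000624).

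The scaffold and adherens junction genes were raised in tip-like-marker cells. Cdh5 was at 1304, 1382 and 1721 CPM there against 959, 1068 and 1146 in other ECs, with no overlap (0.41 ± 0.05, adjusted p = 1.61e-05, limma, 8 of 8). Tjp1 was higher by 0.45 ± 0.07 (adjusted p = 0.000254, 8 of 8), and likewise in AQP7+ capillary-marker cells by 0.44 ± 0.08 (adjusted p = 0.000670, 8 of 8). The latter lost its call without cells of more than 1 class (0.49, adjusted p = 0.0582) and with cells thinned to 2000 UMIs (0.64, adjusted p = 0.224, 3 libraries). Pecam1 did not pass in tip-like-marker cells (0.04 ± 0.05) but was higher in venous-marker cells (0.36 ± 0.04, adjusted p = 8.69e-06, 8 of 8).

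Counted over the 8 tested members, 6 differed in arterial-marker cells (5 higher), where 37.1% of all genes did (38.0% at the second gate). In venous-marker cells 7 differed (3 higher) against 28.6% (28.9%), in AQP7+ capillary-marker cells 5 (4 higher) against 16.3% (16.7%), and in tip-like-marker cells 6 (4 higher) against 26.9% (27.2%). Proliferative-marker cells had 5 of 8 called, none of them higher, against 25.7% (28.9%). Those were Jam2 (−1.15 ± 0.18, adjusted p = 0.00103, limma), Cldn5 (−1.04 ± 0.08, adjusted p = 7.80e-06), Plvap (−0.46 ± 0.08), Pecam1 (−0.33 ± 0.06) and Cdh5 (−0.25 ± 0.07), each lower in 4 of 4 libraries. Cdh5 lost its call without replicate 1 of spontaneous PBS (adjusted p = 0.0862), without replicate 2 of implanted PBS (0.1065) and with no filter on low values (0.0579). Thinned to 2000 UMIs, over 3 libraries, Cldn5 kept its call (−1.01, adjusted p = 0.00900), and Jam2 (−0.65, adjusted p = 0.177), Plvap (−0.52, 0.0702), Pecam1 (−0.40, 0.170) and Cdh5 (−0.27, 0.362) did not. Weak calls near the threshold were F11r (0.13 ± 0.05, adjusted p = 0.0472) and Jam2 (0.30 ± 0.09, adjusted p = 0.0214) in arterial-marker, Tjp1 (−0.18 ± 0.06, adjusted p = 0.0453) in venous-marker, and Esam in AQP7+ capillary-marker (0.22 ± 0.07, adjusted p = 0.0365) and tip-like-marker cells (0.18 ± 0.06, adjusted p = 0.0272).

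Classes also differ in depth, as a deeper cell shows more markers: the median was 15180.5 to 24522.5 UMIs in tip-like-marker and 8616 to 15133 in arterial-marker cells. With cells thinned to 2000 UMIs, which keeps fewer cells in each class, Cldn5 in venous-marker cells was at −4.06, Jam2 in tip-like-marker cells at −3.78 and Plvap in arterial-marker cells at −1.43, all called, whereas F11r (0.17, adjusted p = 0.352) and Tjp1 (0.37, adjusted p = 0.0830) in tip-like-marker cells were not. The directions of these 5 values were as before thinning. Calls were also lost in arterial-marker cells for Cdh5 (0.02, adjusted p = 0.869, higher in 3 of 8 libraries) and F11r (−0.03, adjusted p = 0.893). The same held for Esam in tip-like-marker (0.01, adjusted p = 0.941), Tjp1 in venous-marker (−0.16, adjusted p = 0.445) and Jam2 in AQP7+ capillary-marker cells (0.77, adjusted p = 0.161, 3 libraries).

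**Figure D4:**
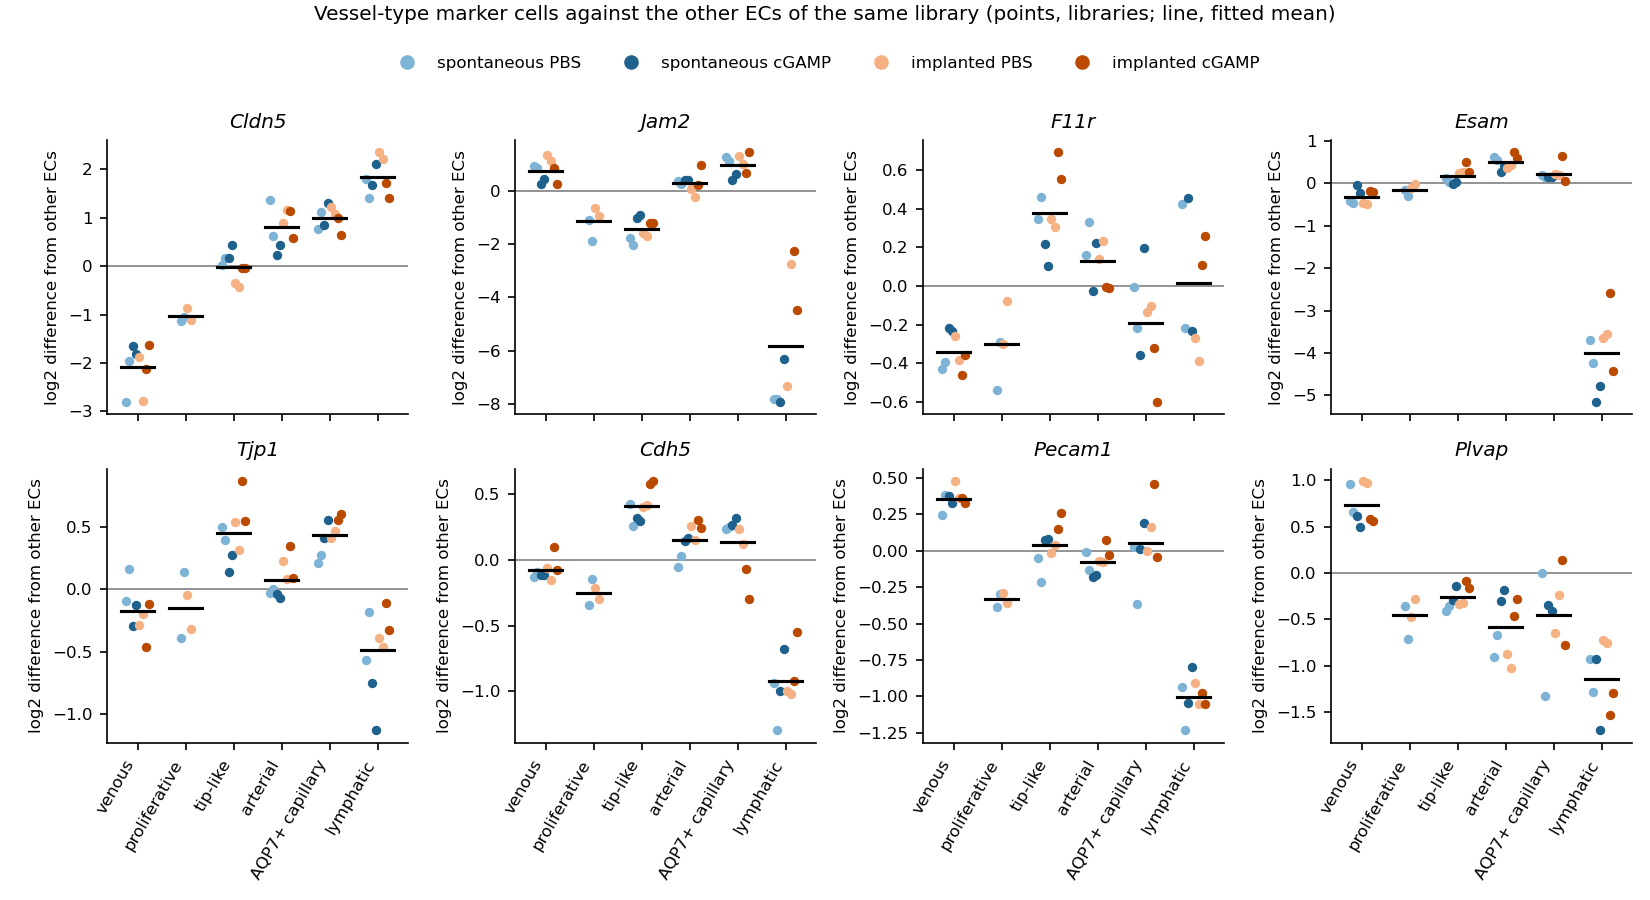
Log2 difference of 8 junction genes between the cells of a marker class and the other ECs of the same library (points, coloured by group), with the fitted mean (line), for 6 classes and on an axis of its own for each gene. Outside lymphatic-marker cells the lowest fitted means were those of Cldn5 in venous-marker (−2.08) and Jam2 in tip-like-marker cells (−1.44).

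In lymphatic-marker cells 7 of 9 members were called (1 higher) against 29.3% of all genes (28.8% at the second gate). Initial lymphatics are held by discontinuous, button-like junctions, and the markers used here were genes such as Prox1 and Lyve1. Cldn5 was at 1770, 2484 and 3389 CPM against 616, 663 and 827 in other ECs, higher in 8 of 8 libraries with no overlap (1.84 ± 0.10, adjusted p = 1.84e-08, limma). Esam was close to absent in comparison, at 21.9, 54.0 and 102 CPM against 613, 807 and 894 (−4.00 ± 0.22, adjusted p = 9.59e-09). Summed over cells this was 51.9 against 780.0 CPM, or 6.65% (95% interval 5.91 to 7.47%, counting error only).

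JAM-B transcripts were also scarce in these cells. In 340 lymphatic-marker cells there were 57 Jam2 UMIs, 0 in 4 of 8 libraries, where a count of 0 allows up to 3.67 to 10.8 CPM (3 UMIs per library). The summed level was 10.4 CPM against 187 in other ECs, a ratio of 5.55% (95% interval 4.20 to 7.19%, counting error only), and Jam2 was lower in 8 of 8 libraries (adjusted p = 6.02e-06, limma). Smaller log2 differences were those of Plvap (−1.14 ± 0.11), Pecam1 (−1.002 ± 0.063), Cdh5 (−0.92 ± 0.08) and Tjp1 (−0.49 ± 0.11), with adjusted p = 0.00332 for Tjp1 and lower for the rest. F11r did not differ beyond error (0.02 ± 0.10, adjusted p = 0.924). Ocln did not pass the test either (0.50 ± 0.49, adjusted p = 0.501), at levels where the added 1 CPM shrinks a difference. Summed over cells it gave 13 UMIs in the 340 lymphatic-marker cells and 47 in the other ECs. That ratio was 450% (95% interval 223 to 846%, counting error only), with no Ocln UMI in 4 of 8 libraries, so the test does not decide whether Ocln differed. Of 417 deposited cells with 4 lymphatic markers, 77 failed the first gate, 64 of them in replicate 1 of implanted cGAMP, and so the values of members other than Pecam1, Cdh5 and Esam describe lymphatic-marker cells that carried at least 2 of those 3. Values of those 3 come from the second gate, which 368 of the 417 passed and 49 failed. There the ratio for Jam2 was 5.25%.

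The cGAMP response was then read within a single class, an alternative chosen after seeing the data. In tip-like-marker cells alone, Jam2 was at 71.3 and 59.4 CPM in spontaneous PBS and 127 and 120 in spontaneous cGAMP, and at 57.4 and 60.4 CPM in implanted PBS and 76.0 and 98.5 in implanted cGAMP. It rose in both models, by 0.92 ± 0.15 (adjusted p = 0.00137, limma) and 0.55 ± 0.15 (adjusted p = 0.0167), although over all ECs it had not changed beyond error in either (−0.01 and 0.15). The difference between the models, −0.37 ± 0.21, did not pass (adjusted p = 0.390).

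For F11r the difference of the responses was called in tip-like-marker cells alone, which was 1 of 23 alternative settings. Over all ECs it had not passed the test (0.29 ± 0.11, adjusted p = 0.321, limma). In tip-like-marker cells the values were as follows. F11r was at 321 and 334 CPM in spontaneous PBS and 344 and 333 in spontaneous cGAMP, with overlapping values (0.05 ± 0.09, adjusted p = 0.801, limma). In implanted tumours it was at 315 and 297 CPM after PBS and 518 and 532 after cGAMP, a rise of 0.78 ± 0.09 (adjusted p = 5.04e-05). The difference of the responses was 0.73 ± 0.13 and passed the test (adjusted p = 0.00743). The implanted rise was also called in arterial-marker (0.41, adjusted p = 0.0342) and venous-marker cells (0.42, adjusted p = 0.0279), and not in AQP7+ capillary-marker cells (0.21, adjusted p = 0.822), with 31 to 46 cells of that class per library.

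Other members in tip-like-marker cells were called in 1 model each. The share of all genes called in these single-class fits is not given here, so the calls have no background beside them. Tjp1 fell by 0.46 ± 0.11 in spontaneous tumours (adjusted p = 0.0134, limma) and was at −0.12 ± 0.11 in implanted ones, and Cldn5 rose by 0.39 ± 0.13 in implanted tumours (adjusted p = 0.0425) and was at 0.08 ± 0.13 in spontaneous ones. Neither difference between the models passed. The tip-like share of ECs was 14.5 and 18.9% in spontaneous PBS, 23.5 and 24.7% in spontaneous cGAMP, 20.7 and 18.0% in implanted PBS, and 12.97 and 21.2% in implanted cGAMP. Its part, and that of the mural and immune markers that moved with cGAMP, in these within-class values was not tested. The immune markers were seen although the live EC gate of the methods leaves out CD45+ cells.

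**Figure D5:**
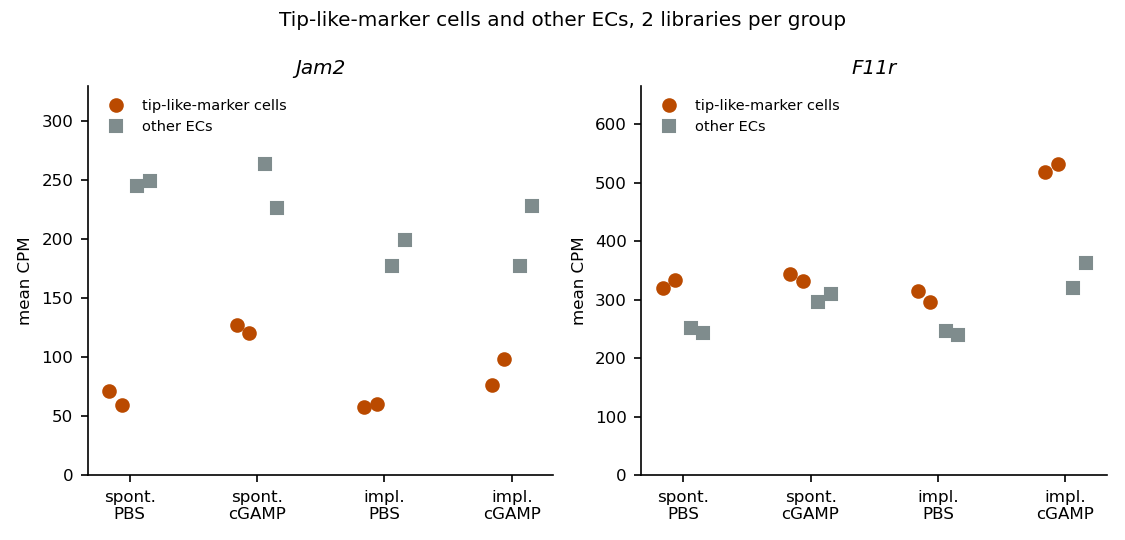
Mean level in CPM of Jam2 and F11r in tip-like-marker cells (circles) and in the other ECs (squares) of each library, by group. In tip-like-marker cells both cGAMP libraries lay above both PBS libraries for Jam2 in each model, and for F11r in implanted tumours, where the cGAMP values were 518 and 532 CPM.

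Other genes of endothelial contact were read from a list of 87 in 7 roles, of which 84 were found and 65 tested. After cGAMP, 15 were called in spontaneous tumours (1 higher and 14 lower, 23.1%) and 23 in implanted tumours (3 higher and 20 lower, 35.4%). Over all genes 13.2% were called in the former (535 higher and 836 lower) and 26.3% in the latter (927 higher and 1816 lower), so most calls were falls there too. The median change of the tested genes was −0.14 and −0.16, against −0.10 over all genes in both. Adherens junction genes fell in 5 of 11 and 6 of 11 cases with none higher, Ctnnb1 (beta-catenin) by 0.31 and 0.39 (adjusted p = 0.0190 and 0.00288, limma) and Cdh13 (T-cadherin) by 0.44 and 0.84 (adjusted p = 0.00591 and 8.09e-05) on the log2 scale. Gap junction genes fell in 2 and 3 of 4, caveolar genes in 2 and 5 of 7 and tight junction plaque genes in 2 and 3 of 10. Of 7 transmembrane genes of the tight junction 0 were called in either model. Permeability regulators were called in 3 of 19 in each model, with 1 of the implanted calls higher. Other contact genes were called in 1 of 7 (higher) in spontaneous and 3 of 7 (2 higher and 1 lower) in implanted tumours. Ctnnb1 and Cdh13 were picked for mention after their values were seen.

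Heg1, a transmembrane partner of the CCM complex that stabilises junctions, fell in both models, from 262 and 251 CPM to 182 and 163 in spontaneous tumours (−0.57 ± 0.08, adjusted p = 0.00108, limma) and from 329 and 332 to 168 and 169 in implanted ones (−0.96 ± 0.08, adjusted p = 3.08e-05). Cavin2, a coat protein of caveolae, fell as well (−0.50 ± 0.14, adjusted p = 0.0408, and −0.89 ± 0.14, adjusted p = 0.00142). Ece1, the endothelin-converting enzyme, rose in both (0.46 ± 0.10, adjusted p = 0.0152, and 0.41 ± 0.10, adjusted p = 0.0143). Of the connexin genes, Gja5 fell in both (−0.96 ± 0.12, adjusted p = 0.000792, and −0.67 ± 0.12, adjusted p = 0.00355), and Gja4 was called in implanted tumours (−0.99 ± 0.17, adjusted p = 0.00238) and stood at −0.53 in spontaneous ones (adjusted p = 0.0633). In implanted tumours S1pr1, a receptor whose signalling tightens junctions, rose by 0.60 ± 0.11 (adjusted p = 0.00449), and so did Mcam (CD146) by 0.31 ± 0.08 (adjusted p = 0.0143). Some of these calls rested on single libraries. When each library was left out in turn, Cavin2 in spontaneous tumours stayed called in 5 of 8 fits and was lost without either spontaneous PBS library or replicate 1 of spontaneous cGAMP (adjusted p up to 0.249). Ece1 stayed called in 4 of 8 fits in spontaneous tumours, lost without any 1 of their libraries (up to 0.110), and in 6 of 8 in implanted ones, lost without replicate 2 of PBS or replicate 1 of cGAMP (up to 0.120). Mcam was lost without replicate 2 of implanted PBS or of implanted cGAMP (up to 0.122). Heg1 in both models, Gja5 in spontaneous tumours, and Gja4, S1pr1 and Cavin2 in implanted ones stayed called in all 8 fits, and the implanted value of Gja5 was not refitted. Heg1 was also 1.52 ± 0.06 higher in arterial-marker cells than in other ECs (adjusted p = 2.38e-10, limma). The arterial-marker share of ECs was 23.9 and 23.5% in spontaneous PBS and 24.8 and 21.5% in spontaneous cGAMP. In implanted tumours it was 28.7 and 34.9% after PBS and 14.7 and 25.4% after cGAMP. Its part in these changes was not tested.

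Of the same list, 10 genes differed between the models after PBS (5 higher in implanted tumours and 5 lower, 15.4%) and 23 after cGAMP (6 higher and 17 lower, 35.4%). Of all genes, 8.41% were called after PBS (373 higher and 503 lower) and 15.2% after cGAMP (585 higher and 1001 lower). Gja5 was higher in implanted tumours under both treatments (0.82 ± 0.12, adjusted p = 0.00400, limma, and 1.11 ± 0.12, adjusted p = 0.00136), as was Ece1 (0.56 and 0.50). The part of the arterial-marker share in these values was not tested. After PBS Cavin1 was also higher (0.46, adjusted p = 0.00596), and Magi3 (−0.65), Rhob (−0.60) and Krit1 (−0.46) were lower. After cGAMP Cgnl1 was higher (0.42), and Gjc1 (−1.35), Cldn15 (−0.64) and Tek (−0.56) were lower. With each library left out in turn, Krit1 and Magi3 stayed called in 4 of 8 fits (adjusted p up to 0.195 and 0.190), Rhob in 6 (0.145), Cgnl1 in 4 (0.201), Cldn15 in 5 (0.138) and Tek in 7 (0.0576), Ece1 in 6 under either treatment (0.0790 and 0.102), and Cavin1 and Gjc1 in all 8. Cgnl1 was lost without any 1 of the 4 cGAMP libraries, Cldn15 without either spontaneous one or replicate 1 of the implanted ones, Ece1 after cGAMP without either spontaneous one, and Tek without replicate 2 of spontaneous cGAMP. Krit1 was lost without any 1 of the 4 PBS libraries, Rhob and Ece1 after PBS without replicate 2 of spontaneous or replicate 1 of implanted PBS, and Magi3 without replicate 2 of either PBS group or either spontaneous cGAMP library.

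For the vessel classes Gja4 and Gja5 were left out of the list, which left 85 genes. Of the tested ones 40 of 65 differed in arterial-marker cells (30 higher) and 43 of 66 in venous-marker cells (32 lower). Over all genes these shares were 37.1% (2072 of 4053 calls higher) and 28.6% (1922 of 3106 calls lower). Another claudin, Cldn15, was higher in arterial-marker (1.52 ± 0.11, adjusted p = 4.13e-08, limma) and AQP7+ capillary-marker cells (1.98 ± 0.15, adjusted p = 5.19e-09), the classes in which Cldn5 was high, and lower in lymphatic-marker cells (−4.03 ± 0.34, adjusted p = 8.51e-07), where Cldn5 was highest. The polarity gene Pard6g was higher in lymphatic-marker cells by 6.61 ± 0.18 (adjusted p = 4.95e-11, 8 of 8 libraries), as was Nectin2 by 2.06 ± 0.11. Jup (plakoglobin) was lower in venous-marker cells (−1.56 ± 0.16, adjusted p = 2.88e-06) and higher in lymphatic-marker cells (0.93 ± 0.12, adjusted p = 2.88e-05).

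Jup was also among the genes most like Cldn5. Over 44 means of a class in a library, from 8 libraries and 6 classes, and among 8552 genes, those with the highest Pearson r to Cldn5 were Tgfbr2 (0.868), Jup (0.810) and Clic5 (0.796), and to Plvap Prkch (0.806), P3h2 (0.801) and Bace2 (0.799). Plvap and Cldn5 stood at −0.774 with each other and Jam2 and Esam at 0.888. These points share libraries, depth and, where a cell carried more than 1 class, cells, so r describes the pattern and is not a test.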

How the data were processed

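The authors sorted live ECs (CD45- and CD31+ in their flow cytometry methods, with no other gate stated for these libraries), made 10x Chromium 3′ libraries, mapped reads to mm10 with Cell Ranger 3.0.0 (submitters' processing notes, as for Seurat 3.1.1), dropped cells below 500 genes or above 10% mitochondrial transcripts as well as genes seen in under 3 cells, and deposited natural log values in a table for each library, ln(1 + UMIs × 10000 / total UMIs of the cell). UMIs were worked back and were whole within 0.01 for 100% of values. Cell numbers in the study's supplement bracket those deposited, with the initial ones larger and the final ones smaller, so the choice of deposited cells is not settled. Libraries held 7863535 to 16506086 UMIs (2014 to 13148 UMIs per cell at the median), which sets the counting precision, and intervals cover counting error only. No numeric column was left unmapped to a library (0 unused).

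Groups came from the labels. The test was limma 3.58.1 in R 4.3.3 (eBayes with trend, all 8 libraries in 1 fit) on log2 of mean CPM over ECs + 1 CPM, so fold changes of low genes are understated. The filter kept genes that reached 5 CPM in 2 or more libraries, p values were adjusted by Benjamini-Hochberg over all of them, and genes under 0.05 were called. Vessel classes were tested on differences within a library, over libraries with at least 15 cells of the class. Replicates are 2 mice per group, and no doublet caller was run. On simulated data, the fit of the implanted response called 98 of 100 genes changed by 1 on the log2 scale. It also called 10 of 9953 unchanged genes. The simulation drew independent noise and copied neither the shallow cells of a library nor cells of other types. It therefore does not show how the fit performs on these libraries. Sequences and coordinates came from RefSeq (GRCm38.p6) and GENCODE (GRCm38) tables and were read with Python 3.11.15, numpy 2.4.6 and pandas 2.3.3.

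All 9 members are named. From the junction list, up to 3 called genes in each direction with the largest change and a mean of at least 10 CPM are named per comparison of groups, with examples in the classes, and likeness is given for the 3 highest r. The members and lists were chosen with earlier results of these data known. Alternatives were other pseudocounts, filters, scalings, gates and cell sets, leaving out each library, a replicate block and single classes. Replicates of the groups share numbers in the labels, and no pairing by number is stated. Deviations from the group means correlated at −0.197 to 0.110 over the 6 pairs of groups. With 2 libraries per group these values cannot decide whether replicates of the same number were handled together.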

Additional observations from a re-analysis of the deposited data

Results flagged for a closer look

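Gjc1 (connexin 45) had a cGAMP response whose difference between the models passed the test, but did so in only 4 of 23 alternative settings. It was at 34.5 and 39.4 CPM in spontaneous PBS, 49.8 and 43.3 in spontaneous cGAMP, 27.2 and 30.3 in implanted PBS, and 16.3 and 18.9 in implanted cGAMP. The spontaneous response was 0.32 (log2, adjusted p = 0.130, limma) and the implanted one −0.68 (adjusted p = 0.00449). Their difference, −1.005, passed the test (adjusted p = 0.0437). It was called in 1 of 8 fits that left out a library (adjusted p = 0.0303 to 0.142), and with the ECs that carried markers of other cell types left out the spontaneous value turned to −0.52 (adjusted p = 0.0403). Mural markers were found in 2.002 to 5.79% of ECs after PBS and in 9.45 to 20.5% after cGAMP.

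Rap1b, a small GTPase, was lower after cGAMP in both spontaneous and higher in both implanted libraries (−0.11 and 0.11). The difference, 0.22, did not pass the test (adjusted p = 0.390, limma). Groups of 2 libraries were too small for a search for outlying samples.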

How the results depend on the processing

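Over single genes, 1367 group values and 756 class values kept their direction and their side of the threshold, and 62 and 13 more changed sign while called in neither setting and within the SE. Another 137 group and 54 class values lost their call, 35 and 7 gained one, and 25 and 3 changed sign otherwise. In the other settings run, counts of called members stayed within 1.5 times the reported ones, with the following exceptions, whose cause was not tested.

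The spontaneous response had 1 called member with median-of-ratios scaling, at the second gate, without ECs with other markers or in venous-marker cells alone, and 2 with UMIs summed, without cells under 2000 UMIs or in tip-like-marker cells alone. The implanted response had 1 in arterial-marker or venous-marker cells alone and 0 in AQP7+ capillary-marker cells alone. The difference of the responses had 1 in tip-like-marker cells alone. Shares of all genes called in single classes alone are not given here. Implanted against spontaneous PBS had 1 with UMIs summed, without ECs with other markers or without cells under 2000 UMIs. The same after cGAMP had 1 with median-of-ratios scaling, without cells under 2000 UMIs or in venous-marker cells alone, 2 in tip-like-marker cells alone and 3 with UMIs summed. In classes thinned to 2000 UMIs, which left 3 libraries for 2 classes, the count was 2 of the 5 members then tested (AQP7+ capillary), 3 (tip-like), 1 (proliferative) and 3 of 3 (lymphatic: Cdh5, Esam and Pecam1), and 2 for AQP7+ capillary-marker cells without cells of more than 1 class.

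Leaving out each library gave 0 to 2 (spontaneous response), 2 to 5 (implanted), 0 to 0 (difference), 0 to 1 (models after PBS), 0 to 1 (after cGAMP), 5 to 6 (arterial), 6 to 7 (venous), 4 to 5 (AQP7+ capillary), 5 to 6 (tip-like), 4 to 6 (proliferative) and 7 to 7 (lymphatic). A lone library was then assumed to vary like the other groups. The replicate block gave 1 called member after cGAMP between the models (Esam −0.32, adjusted p = 0.0356, limma) and changed no other count of members. Under it the Gjc1 difference had an adjusted p of 0.0549.

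Values turned sign in single classes, given as log2. In venous-marker cells alone, the spontaneous response was 0.50 (Cldn5) and 0.18 (Esam), the implanted one −0.17 (Jam2) and −0.10 (Rap1b), and Cgnl1 after cGAMP −0.13. In tip-like-marker cells alone, Jam2 was 0.92 (spontaneous) and −0.37 (difference), Tjp1 0.34 (difference) and 0.22 (models after cGAMP), Cldn5 −0.40 (models after PBS) and Cdh5 0.16 (models after cGAMP). In AQP7+ capillary-marker cells alone, Pecam1 was 0.13 (spontaneous), Cldn5 −0.20, Cdh5 −0.25 and S1pr1 −0.21 (implanted), Cldn5 −0.24 (difference), and Jam2 0.26, F11r −0.11 and Tek 0.59 (models after cGAMP). In arterial-marker cells alone, Esam was 0.0286 and Plvap 0.20 (implanted), Esam 0.25 (difference), and Tjp1 0.0216 and Tek 0.12 (models after cGAMP). Gjc1 was −0.52 (spontaneous) without ECs with other markers. Among classes, F11r in arterial-marker cells (−0.0285) and Esam in proliferative-marker cells (0.36) turned when thinned, and Cldn5 in tip-like-marker cells (0.17) without cells of more than 1 class. Of these, Jam2 at 0.92 (adjusted p = 0.00137) and Gjc1 (adjusted p = 0.0403) passed the test.

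Depth limits Ocln, with 1 to 13 UMIs per library, and replicate 1 of implanted cGAMP.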
